A study of Homo sapiens with 4 samples.

Results

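The axon guidance ligands and receptors named here are the 69 genes, of 17472 listed in the deposited table, whose symbols belong to the Eph receptor, ephrin, semaphorin, plexin, neuropilin, slit, ROBO, netrin, UNC5, DCC, neogenin, RGM and DRAXIN families. The rule for members uses symbols alone, but the families were chosen with earlier results of these data known. They comprise 8 ephrins, 13 Eph receptors, 20 semaphorins, 9 plexins and neuropilins, 3 slits, 3 ROBO receptors, 4 netrins, 6 netrin receptors and 3 RGM or DRAXIN genes. A further 6 protein-coding symbols of GENCODE v29 that belong to these families were not analysed here. Poly(A) RNA was sequenced from H1, an established human embryonic stem cell line, grown in E8, a defined medium with FGF2 and TGF-beta. The MEK5DD group is 2 libraries of H1 cells that overexpress MAP2K5DD, a mutant of the kinase MEK5 in which residues were changed to aspartate. It was introduced with a lentiviral vector and the cells were selected with puromycin, and the labels describe 1 such line. The WT group is 2 libraries of unmodified H1 cells. No library comes from cells given vector and puromycin alone, so MEK5DD cannot be told apart from delivery, selection or the subline. The comparison asks which transcripts differ between MEK5DD and WT cells.

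Guidance genes encode cues that steer growing axons and migrating cells, together with the receptors that read them. Ephrins are membrane-bound ligands of the Eph receptor tyrosine kinases, and both partners can signal into the cell that carries them. Semaphorins act through plexins, with neuropilins as coreceptors for the secreted class 3 members, slits act through ROBO receptors, and netrins act through DCC, neogenin and UNC5 receptors. Many of these genes also act outside the nervous system, in boundary formation, blood vessel growth and epithelial organisation.

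The libraries held 14908486 to 17628945 recovered reads, and values below are normalised read counts, that is, gene counts scaled by the authors for library depth. MAP2K5 itself had 3382 and 3558 in the MEK5DD libraries, against 344 and 315 in the WT libraries. Of the 8 pluripotency markers all were listed, with summed values of 152887 and 143408 in MEK5DD and 150999 and 148415 in WT, mostly from the more abundant ones. NANOG was higher in MEK5DD (log2 0.26, adjusted p = 0.0117), SOX2 was lower (log2 -0.20, adjusted p = 0.0437) and the other 6 did not pass. Neuron markers moved with the groups, with sums of 4778 and 5234 in MEK5DD and 2659 and 2634 in WT over 7 of 9 markers. STMN2 rose most, with 1183 and 1237 in MEK5DD and 87.2 and 80.2 in WT, INA, SYT1 and ELAVL3 also rose, and TUBB3, DCX and RBFOX3 did not pass, RBFOX3 having 174 and 170 in MEK5DD and 224 and 186 in WT. Neural progenitor markers summed to 463 and 458 in MEK5DD and 1852 and 1874 in WT over 6 of 8. Most of that difference was SIX6, with 199 and 186 in MEK5DD and 1272 and 1282 in WT; SIX3, SOX1 and OTX2 also fell, FABP7 did not pass, and PAX6, below the filter for testing, had 6.36 and 5.98 in MEK5DD and 1.76 and 3.12 in WT. Fibroblast markers summed to 8413 and 8106 in MEK5DD and 7111 and 7016 in WT over 4 of 8. COL1A1 and COL1A2 rose, and THY1 and PDGFRB did not pass. Endothelial markers summed to 5454 and 5691 in MEK5DD and 2801 and 2704 in WT over 4 of 6, nearly all of it KDR. KDR rose, and so did TEK, with 64.5 and 66.8 in MEK5DD and 23.8 and 19.8 in WT. TIE1 did not pass, and ESAM was below the filter for testing. Each listed gene has at least 1 read in each library, so no listed marker could be at 0. The markers outside these counts were not analysed here. The part of these shifts in the results below was not tested. In bulk RNA, fewer cells that express a gene and less of its RNA per cell cannot be told apart.

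In MEK5DD cells 10 guidance genes rose and 6 fell. The netrin receptor gene DCC and the ligand gene NTN4 rose most, 3.41-fold and 2.42-fold, and the class 5 semaphorin genes SEMA5A and SEMA5B, the ephrin gene EFNA5 and the netrin receptor gene UNC5A fell by 0.54 to 0.64 on the log2 scale. The other rises were the ephrin genes EFNA1 and EFNB2, the Eph receptor gene EPHB4, the neuropilin gene NRP2 and the semaphorin genes SEMA3A, SEMA3F, SEMA4B and SEMA4C. The other falls were EFNB1 and NEO1. Of 66 members tested, 15.2% were higher and 9.09% lower at an adjusted p under 0.05 (limma), and 24.2% were called in either direction. Over all 15721 genes tested the corresponding shares were 7.69% higher, 6.47% lower and 14.2% in either direction. The difference between these shares was not tested. The median log2 fold change was -0.06 over the 66 members and -0.0023 over all genes tested. Only DCC and NTN4 among the called members changed at least 2-fold, 3.03% of the members tested. Of all genes tested, 2.44% were called with a change of at least 2-fold. In 47 of the 66 members (71.2%) both MEK5DD values lay on one side of both WT values, an arrangement shown by 56.2% of all genes tested. Members with a mean value from 100 to 1000 were called in 30.3% of cases, against 16.1% of all genes tested in that range. Below 100 the shares were 15% of members and 7.97% of all genes tested. From 1000 upward they were 23.1% and 18.8%.

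The 16 calls depended on how the variance was modelled. The edgeR test on recovered reads called the same 16 members and no other, DESeq2 called 11 of them, and limma without the mean-variance trend called only NTN4. In the fits that left out 1 library each, DCC, NTN4, NRP2, SEMA5A and SEMA5B passed every time, which is 31.2% of the called members, against 38.9% of all called genes. Each such fit took a gene's own spread only from the group that kept both libraries, so passes and losses also follow that spread. The labels do not say whether the libraries came from separate cultures, so p-values reflect only library-to-library spread, possibly technical.

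**Figure D1:**
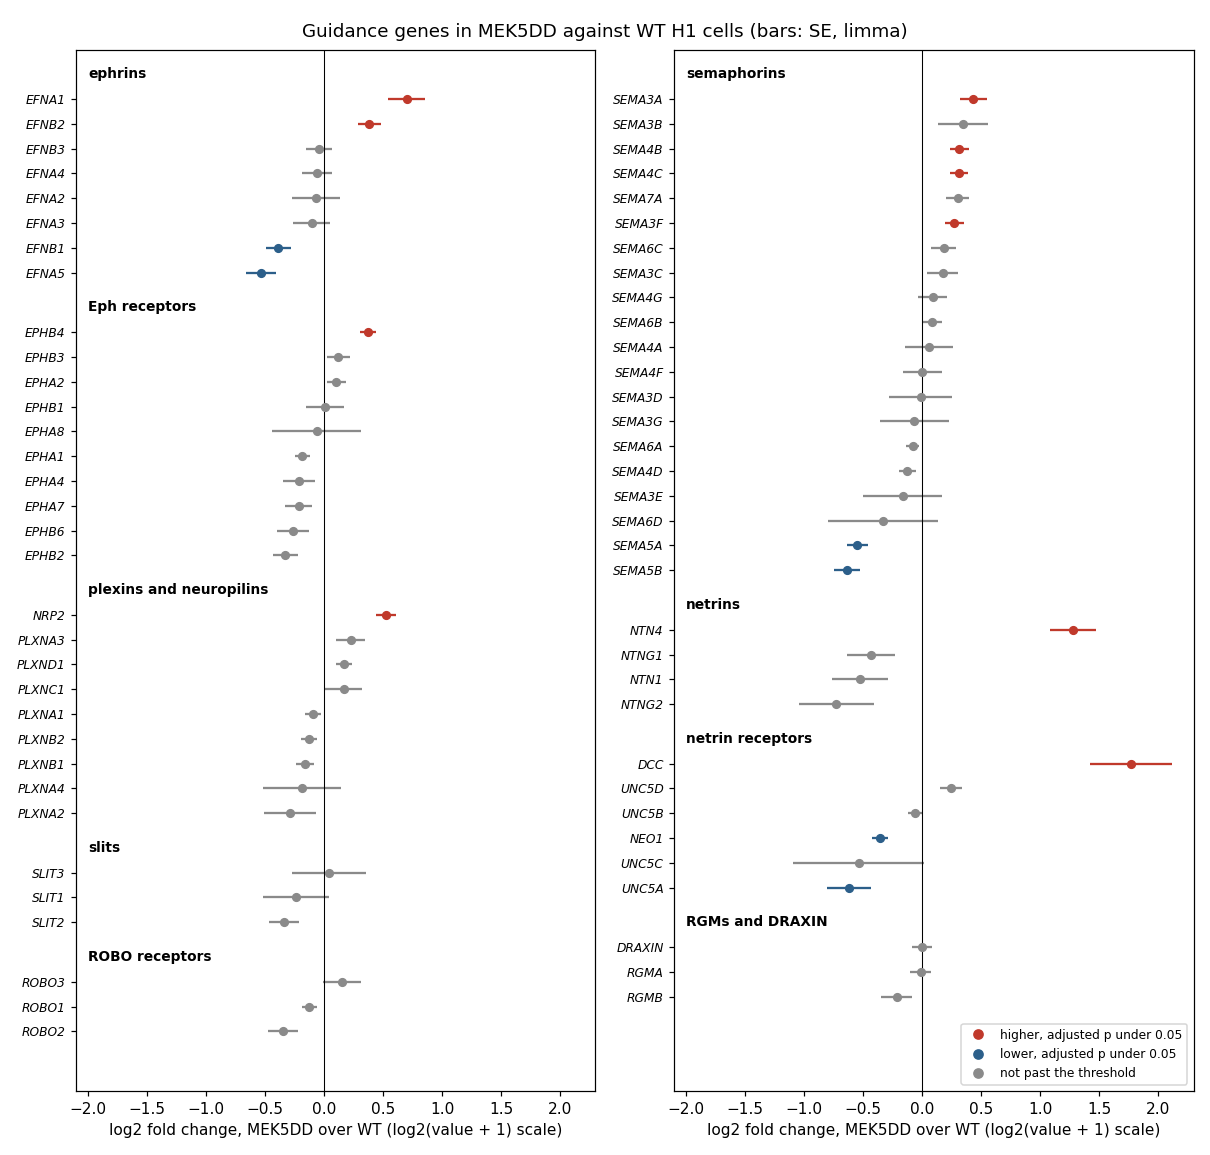
Log2 fold change (MEK5DD over WT, on the log2(value + 1) scale) of the 66 tested guidance genes, grouped by family, with the SE from limma as bars. Red marks the 10 genes that were higher and blue the 6 that were lower at an adjusted p under 0.05; DCC and NTN4 lie furthest to the right.

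Levels were compared between genes per kilobase of exon. SEMA6A, a transmembrane semaphorin, was the most abundant member, with 1339 and 1423 per kilobase in MEK5DD and 1456 and 1465 in WT. By itself it held 28.6% and 29.7% of the summed normalised counts of the 69 genes in MEK5DD and 30.4% and 30.4% in WT. The receptor tyrosine kinase gene EPHA1 came next, with 617 and 604 per kilobase in MEK5DD and 705 and 683 in WT. EPHB4 followed in MEK5DD, with 456 and 424 per kilobase, above ROBO1 with 298 and 327. In WT the values of EPHB4 (332 and 346) and ROBO1 (346 and 334) overlapped, so these neighbours could not be ordered. The netrin receptor gene UNC5B followed, with 257 and 250 per kilobase in MEK5DD and 260 and 267 in WT, and PLXNB2 came close to it, with 232 and 236 in MEK5DD and 248 and 262 in WT. NEO1 stood at rank 11 in MEK5DD and rank 7 in WT. At the other end, 19 members were under 10 per kilobase in WT, among them NTN4 and DCC.

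**Figure D2:**
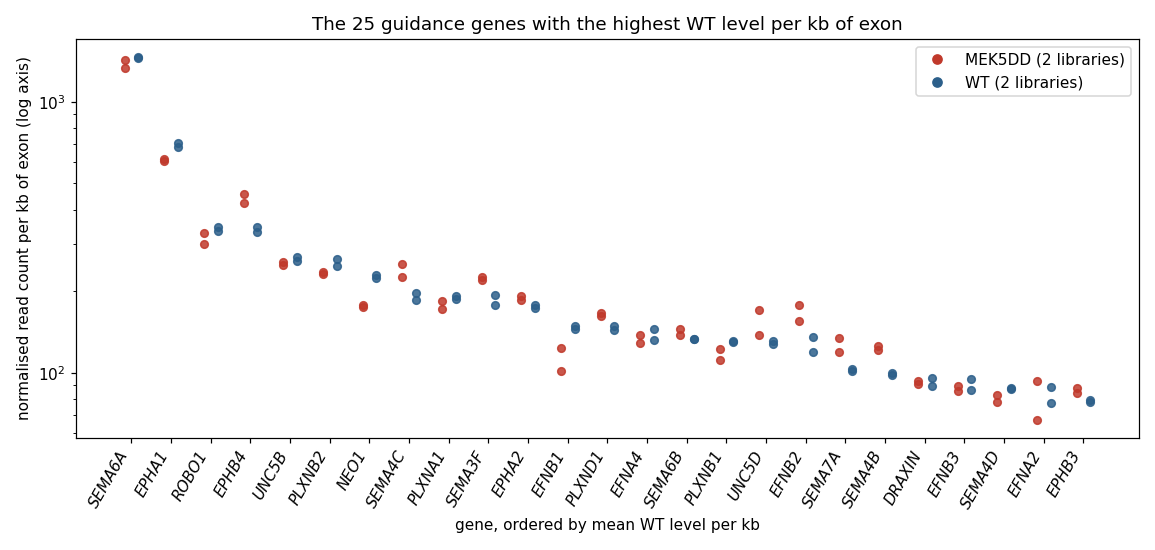
Normalised read count per kilobase of exon (log axis) of the 25 guidance genes with the highest WT level; each point is 1 library, MEK5DD left of WT. SEMA6A stands at 1339 per kilobase or above in all 4 libraries, and EPHB4 is above ROBO1 in the MEK5DD libraries, while their WT values overlap.

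Ephrins are divided into A ephrins, which are tethered to the membrane by a lipid anchor, and B ephrins, which span it. EFNA1, the ligand gene of EPHA2 and other EphA receptors, had 151 and 139 in MEK5DD, against 81.9 and 95.8 in WT. Both MEK5DD values lay above both WT values, a 1.62-fold rise (log2 0.70, SE 0.16, adjusted p = 0.0111). EFNB2, the B ephrin gene known from arterial endothelium, had 891 and 782 in MEK5DD and 601 and 681 in WT. It rose 1.31-fold (log2 0.38, SE 0.10, adjusted p = 0.0186). EFNA5, an A ephrin that repels retinal axons, had 140 and 141 in MEK5DD and 198 and 209 in WT. The libraries of each group lay close together, and EFNA5 was 1.45-fold lower (log2 -0.54, SE 0.13, adjusted p = 0.0150). EFNB1, an X-linked B ephrin gene, had 411 and 337 in MEK5DD, against 493 and 480 in WT. It was 1.31-fold lower (log2 -0.39, SE 0.11, adjusted p = 0.0337), with more spread within MEK5DD than within WT, and its log2 fold change became -0.24 without MEK5DD replicate 2 and -0.53 without MEK5DD replicate 1. Each subfamily thus held 1 called rise and 1 called fall, where 14.2% of all genes tested were called in either direction. The summed values of the 8 ephrins were 2249 and 2017 in MEK5DD and 2021 and 2151 in WT, which overlap. EFNA2, EFNA3, EFNA4 and EFNB3 did not pass, and EFNA3 had the largest difference among them (log2 -0.10, 95% interval -0.44 to 0.24). EFNA1 lies on chromosome 1 at 155127460 to 155134857 (GRCh38), near EFNA3 at 155078872 to 155087538 and EFNA4 at 155063731 to 155069553. EFNA1 was the called gene of that cluster, and a difference between the changes of these neighbours was not tested. Without WT replicate 1 the calls of EFNA1 (adjusted p = 0.0720), EFNB2 (adjusted p = 0.242), EFNA5 (adjusted p = 0.0524) and EFNB1 (adjusted p = 0.161) were lost, and without WT replicate 2 those of EFNA5 (adjusted p = 0.124) and EFNB1 (adjusted p = 0.106).

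Among Eph receptors EPHB4, the receptor for which EFNB2 is the known ligand, was called. It had 2931 and 2726 in MEK5DD and 2138 and 2224 in WT, a 1.30-fold rise (log2 0.37, SE 0.07, adjusted p = 0.00295). Its adjusted p was 0.0688 without WT replicate 1, and 69 of its exon bases overlap SLC12A9 on the opposite strand. Both genes of the EFNB2 and EPHB4 pair were thus higher in MEK5DD cells. EPHB2, a B receptor of midline and topographic guidance, had 339 and 328 in MEK5DD, against 391 and 449 in WT. All 4 values were separate by group, but its log2 difference of -0.33 (SE 0.10) missed the threshold (adjusted p = 0.0550). EPHA1 had 2920 and 2856 in MEK5DD, against 3336 and 3233 in WT (log2 -0.19, SE 0.06, adjusted p = 0.0675). EPHB2 and EPHA1 passed without MEK5DD replicate 1 (adjusted p = 0.00606 and 0.000798) and without MEK5DD replicate 2 (adjusted p = 0.0172 and 0.00504), but not without WT replicate 1 (adjusted p = 0.0857 and 0.557) or WT replicate 2 (adjusted p = 0.516 and 0.401). EPHA2, the receptor of EFNA1 in many epithelia, had 800 and 773 in MEK5DD and 724 and 741 in WT (log2 0.10, 95% interval -0.07 to 0.28). Of the 13 Eph receptors 10 were tested, with a median log2 fold change of -0.12. EPHA3, EPHA6 and EPHA10 were below 10 in all 4 libraries, with values from 0.997 to 8.81, and were not tested.

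Of the semaphorins, calls came from 2 of 7 class 3 genes, 2 of 6 class 4 genes, both class 5 genes and 0 of 4 class 6 genes. Over all genes tested 14.2% were called. A difference between classes, or from that share, was not tested. Both class 5 members, transmembrane proteins with thrombospondin repeats, were lower in MEK5DD. SEMA5A had 596 and 679 in MEK5DD, against 972 and 894 in WT. SEMA5B had 234 and 261 in MEK5DD, against 380 and 391 in WT. SEMA5A lies on chromosome 5 at 9035026 to 9546075 and SEMA5B on chromosome 3 at 122909082 to 123028605 (GRCh38). The groups were well apart for both, and the log2 fold changes were -0.55 (SE 0.09, adjusted p = 0.00171) for SEMA5A and -0.64 (SE 0.11, adjusted p = 0.00196) for SEMA5B. In the secreted class 3, SEMA3A, the prototype repellent of sensory axons, had 648 and 832 in MEK5DD and 531 and 555 in WT. Its MEK5DD libraries differed by more than the WT libraries, and its log2 fold change, 0.43 (SE 0.11, adjusted p = 0.0216), became 0.25 without MEK5DD replicate 2 and 0.62 without MEK5DD replicate 1. SEMA3F, the known ligand of NRP2, had 1093 and 1065 in MEK5DD, against 931 and 856 in WT. It rose 1.21-fold (log2 0.27, SE 0.08, adjusted p = 0.0359), and 110 of its exon bases overlap SEMA3F-AS1 on the opposite strand. SEMA3B, SEMA3C, SEMA3D, SEMA3E and SEMA3G did not pass, with SEMA3B furthest from 0 at 59.1 and 59.8 in MEK5DD and 52.0 and 41.7 in WT (log2 0.35, 95% interval -0.12 to 0.82).

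Of the transmembrane class 4, SEMA4B had 877 and 847 in MEK5DD and 699 and 686 in WT, with a log2 fold change of 0.31 and an adjusted p of 0.0195 (SE 0.08). SEMA4C, a ligand of PLXNB2, had 1547 and 1384 in MEK5DD and 1214 and 1146 in WT, also with a log2 fold change of 0.31 and an adjusted p of 0.0204 (SE 0.08). In both genes each MEK5DD value exceeded each WT value. SEMA4A, SEMA4D, SEMA4F and SEMA4G did not pass. The membrane-anchored SEMA7A had 509 and 453 in MEK5DD and 394 and 384 in WT, and missed the threshold (log2 0.30, SE 0.10, adjusted p = 0.0581), with an adjusted p of 0.00101 without MEK5DD replicate 2 and of 0.108 to 0.330 when any other library was left out. The class 6 genes SEMA6A, SEMA6B, SEMA6C and SEMA6D gave 0 calls with limma, edgeR or DESeq2 and 0 with an unadjusted p under 0.05. SEMA6A, the most abundant member, had 14669 and 15586 in MEK5DD, against 15950 and 16045 in WT, with a 95% interval of the log2 fold change from -0.21 to 0.05, and SEMA6C had 490 and 411 in MEK5DD and 387 and 404 in WT. Without MEK5DD replicate 2, SEMA6A, SEMA6C and SEMA4D passed (adjusted p = 0.00647, 0.0116 and 0.0444), and with any other library left out their adjusted p was 0.435 to 0.835. Without WT replicate 1 the calls of SEMA3A (adjusted p = 0.0665), SEMA3F (adjusted p = 0.130), SEMA4B (adjusted p = 0.161) and SEMA4C (adjusted p = 0.0841) were lost, and without WT replicate 2 those of SEMA3F (adjusted p = 0.453), SEMA4B (adjusted p = 0.226) and SEMA4C (adjusted p = 0.257).

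**Figure D3:**
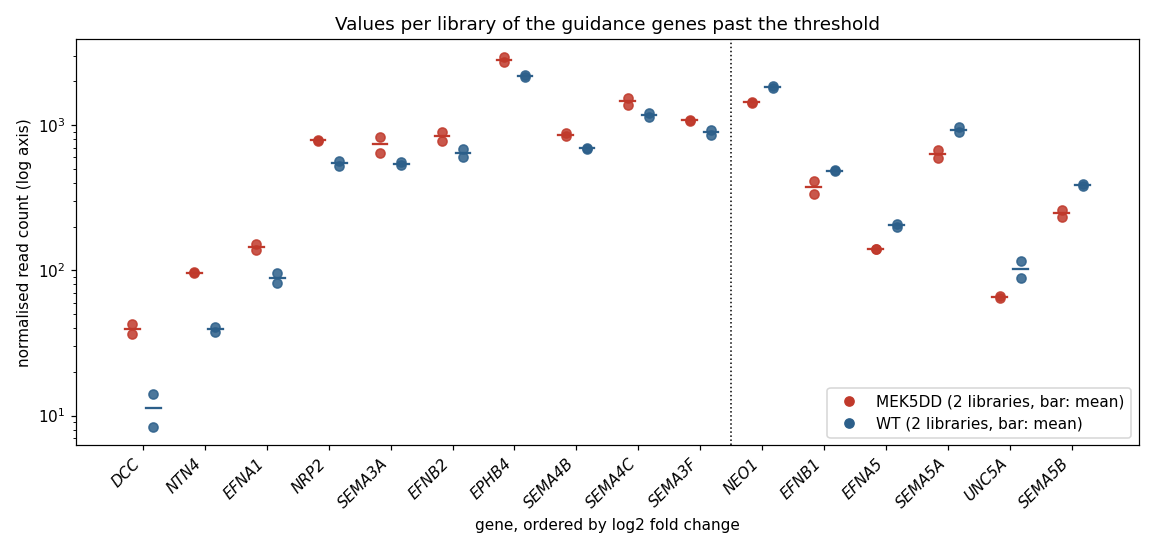
Normalised read count (log axis) in each library of the 16 guidance genes past the threshold, ordered by log2 fold change, with MEK5DD left of WT and a bar at each mean. The dotted line parts the 10 genes that were higher from the 6 that were lower, and in each gene the MEK5DD and WT points are apart.

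The semaphorin receptors gave 1 call. NRP2, a coreceptor for class 3 semaphorins and for VEGFC, had 789 and 782 in MEK5DD, against 524 and 571 in WT. It rose 1.44-fold (log2 0.52, SE 0.09, adjusted p = 0.00163) and was the called gene among the 9 plexins and neuropilins. It lies on chromosome 2 at 205681990 to 205798133. SEMA3A and SEMA3F, of the secreted class 3, were also called higher. The other 5 class 3 genes did not pass, and NRP1 was not analysed here. Over all genes tested 7.69% were called higher. All 8 plexin genes missed the threshold, with log2 fold changes from -0.29 in PLXNA2 to 0.23 in PLXNA3. PLXNA2 had 40.0 and 46.8 in MEK5DD and 56.4 and 49.99 in WT (95% interval of the log2 fold change -0.77 to 0.20). PLXNB2, the most abundant plexin per kilobase, had 1685 and 1710 in MEK5DD and 1802 and 1901 in WT (95% interval -0.27 to 0.02). PLXNB1 and PLXND1 passed without MEK5DD replicate 1 (adjusted p = 0.00408 and 0.0147) and PLXNA1 without MEK5DD replicate 2 (adjusted p = 0.0417). In the other left-out fits their adjusted p was 0.0618 to 0.853.

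Slit and ROBO genes gave 0 calls among 6 tested, where 14.2% of all genes tested were called. ROBO2 and SLIT2 had an unadjusted limma p under 0.05 (0.0174 and 0.0188). The edgeR and DESeq2 tests of the 6 genes also gave 0 calls. ROBO1, the most abundant of them, had 3240 and 3555 in MEK5DD and 3762 and 3637 in WT (log2 -0.12, 95% interval -0.27 to 0.02). ROBO2 had 206 and 254 in MEK5DD and 283 and 300 in WT (log2 -0.35, SE 0.13, adjusted p = 0.0904). The ligand gene SLIT2 had 209 and 187 in MEK5DD and 234 and 268 in WT (log2 -0.34, SE 0.12, adjusted p = 0.0950). In each of the 3 genes both MEK5DD values lay below both WT values, and in 56.2% of all genes tested the groups were apart in one direction or the other. Each passed in 1 of the 4 left-out fits and missed the threshold in the others. ROBO1 had an adjusted p of 0.000891 without MEK5DD replicate 2 and of 0.449 to 0.769 otherwise. ROBO2 had 0.000833 without MEK5DD replicate 2 and 0.197 to 0.383 otherwise. SLIT2 had 0.0135 without MEK5DD replicate 1 and 0.139 to 0.559 otherwise. Over all genes, 3743 passed without MEK5DD replicate 1 and 4629 without MEK5DD replicate 2, against 2226 with all 4 libraries. SLIT1, SLIT3 and ROBO3 overlapped between the groups.

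Netrin genes held the largest changes. DCC, the receptor that mediates attraction to netrin 1, had 36.3 and 42.9 in MEK5DD, against 14.1 and 8.33 in WT. It lies on chromosome 18 at 52340172 to 53535903. Its values rest on 40 and 43 recovered reads in MEK5DD and 16 and 8 in WT. Both MEK5DD libraries were far above both WT libraries, a 3.41-fold rise (log2 1.77, SE 0.35, adjusted p = 0.00525), and the log2 fold change ran from 1.42 to 2.12 as each library was left out. NTN4, a netrin of basement membranes that binds laminin, had 95.4 and 97.7 in MEK5DD, against 37.9 and 40.6 in WT, from 105 and 98 recovered reads in MEK5DD and 43 and 39 in WT. It lies on chromosome 12 at 95657807 to 95791152. It rose 2.42-fold (log2 1.28, SE 0.19, adjusted p = 0.000974) and was the member called under every alternative tried. The other 3 netrin genes lay lower in both MEK5DD libraries than in both WT libraries but did not pass. The groups were apart, in one direction or the other, in 56.2% of all genes tested. NTN1, the classical midline attractant, had 92.7 and 52.8 in MEK5DD and 108 and 94.8 in WT (log2 -0.53, SE 0.24, adjusted p = 0.171), and rested on 1 library. Its log2 fold change was -0.93 without MEK5DD replicate 1 (adjusted p = 0.000438) and -0.13 without MEK5DD replicate 2 (adjusted p = 0.704). NTNG2, a membrane-anchored netrin gene, had 20.0 and 18.9 in MEK5DD and 41.4 and 26.0 in WT (log2 -0.73, SE 0.32, adjusted p = 0.159). NTNG1 had 51.8 and 49.8 in MEK5DD and 75.7 and 62.5 in WT (adjusted p = 0.193).

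The other netrin receptors went the other way from DCC or did not pass. NEO1, which encodes neogenin, a DCC relative that binds RGM proteins as well as netrins, had 1448 and 1425 in MEK5DD, against 1814 and 1859 in WT. It was 1.28-fold lower (log2 -0.35, SE 0.07, adjusted p = 0.00430). UNC5A, a receptor of netrin repulsion, had 64.5 and 66.8 in MEK5DD and 88.1 and 117 in WT. Its WT libraries differed widely, and it was only just past the threshold (log2 -0.62, SE 0.19, adjusted p = 0.0475; adjusted p = 0.0517 with no filter on low values). UNC5D had 1487 and 1849 in MEK5DD and 1418 and 1384 in WT and was not called (log2 0.24, SE 0.09, adjusted p = 0.110). Its log2 fold change was 0.40 without MEK5DD replicate 1 (adjusted p = 4.35e-09) and 0.09 without MEK5DD replicate 2 (adjusted p = 0.337), and it did not pass without WT replicate 1 or 2 (adjusted p = 0.271 and 0.379). UNC5B had 1756 and 1708 in MEK5DD and 1776 and 1827 in WT (95% interval of the log2 fold change -0.20 to 0.09). UNC5C overlapped between the groups. The RGM and DRAXIN genes gave 0 calls and 0 with an unadjusted p under 0.05. Neither edgeR nor DESeq2 called any of the 3. DRAXIN, a secreted netrin antagonist, had 688 and 669 in MEK5DD and 702 and 657 in WT, RGMA overlapped between the groups, and RGMB had 179 and 156 in MEK5DD and 203 and 186 in WT (log2 -0.21, 95% interval -0.501 to 0.07), with 363 exon bases shared with RGMB-AS1. NEO1 did not pass when WT replicate 1 (adjusted p = 0.0574) or WT replicate 2 (adjusted p = 0.106) was left out, and UNC5A without WT replicate 2 (adjusted p = 0.436).

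**Figure D4:**
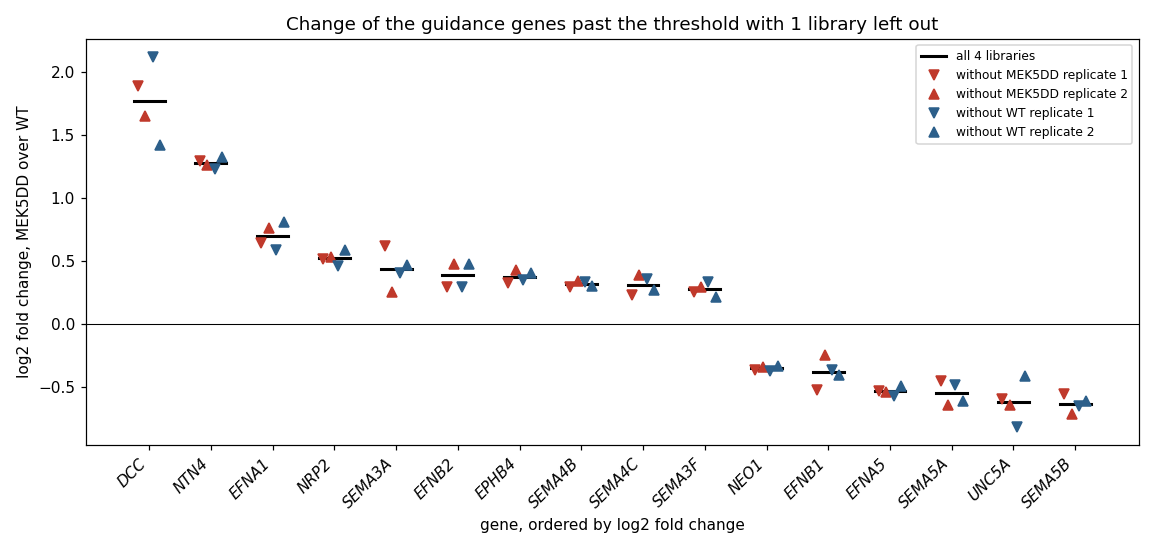
Log2 fold change (MEK5DD over WT) of the 16 called guidance genes in all 4 libraries (black bar) and with each library left out in turn (triangles). No gene changes sign; DCC moves most, between 1.42 and 2.12, and SEMA3A falls to 0.25 without MEK5DD replicate 2.

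The promoter windows of the 3 called members with the largest changes are shown, chosen by size of change alone. These windows differ in GC boxes, the binding motif of SP and KLF factors. They are RefSeq sequences of GRCh38.p14 from 250 bases before to 50 bases after RefSeq's gene start, 5′ to 3′ on the gene's strand: chr18:52339947-52340246 (plus strand) for DCC, chr12:95791106-95791405 (minus strand) for NTN4 and chr1:155127626-155127925 (plus strand) for EFNA1. RefSeq's start differs from the start of the GENCODE gene given above. It lies 25 bases downstream of it for DCC, 3 bases upstream for NTN4 and 416 bases downstream for EFNA1, so the EFNA1 window lies wholly inside the GENCODE gene. Capitals mark matches to the GC box.
DCC: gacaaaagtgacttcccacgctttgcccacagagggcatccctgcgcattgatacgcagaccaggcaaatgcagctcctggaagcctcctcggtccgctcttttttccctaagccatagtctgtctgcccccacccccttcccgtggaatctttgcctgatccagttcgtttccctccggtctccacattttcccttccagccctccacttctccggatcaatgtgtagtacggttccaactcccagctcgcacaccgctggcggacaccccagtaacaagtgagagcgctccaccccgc
NTN4: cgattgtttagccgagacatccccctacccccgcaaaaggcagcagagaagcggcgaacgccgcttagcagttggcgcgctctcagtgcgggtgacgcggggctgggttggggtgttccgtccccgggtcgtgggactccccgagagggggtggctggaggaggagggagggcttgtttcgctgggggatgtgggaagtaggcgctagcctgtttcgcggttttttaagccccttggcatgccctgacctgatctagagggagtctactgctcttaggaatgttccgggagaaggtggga
EFNA1: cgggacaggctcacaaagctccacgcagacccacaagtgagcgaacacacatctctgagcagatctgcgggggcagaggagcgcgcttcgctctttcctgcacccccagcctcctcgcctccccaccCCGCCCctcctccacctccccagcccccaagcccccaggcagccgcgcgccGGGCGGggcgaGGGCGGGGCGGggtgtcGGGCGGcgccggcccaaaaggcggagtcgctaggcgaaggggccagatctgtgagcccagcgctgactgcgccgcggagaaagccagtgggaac
The motifs searched on both strands were the GC box (GGGCGG), AP-1 (TGANTCA), CRE (TGACGTC), the E box (CACGTG) and MEF2 (CTA and TAG with 4 unspecified bases between them), and GC boxes may overlap each other. The DCC and NTN4 windows held none of them, and the EFNA1 window held 5 GC boxes. Windows of 300 bases were found for 60 of the 69 members. A GC box was in 7 of the 9 windows of genes that rose and in 5 of the 6 of genes that fell, against 70.5% of the windows of tested genes and 44.6% of all 27305 windows. The AP-1 motif was in 0 of these 15 windows and in 4.29% of those of tested genes, and the MEF2 motif in 0 and 1.87%. The CRE motif was in 1 window, that of SEMA4C, and in 5.48% of those of tested genes, and the E box in 0 windows and in 1079 of the 10758 of tested genes. A motif match is not a binding site, and the absence of a match says only that these letters are not in this window.

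Partners of the guidance receptors were counted from lists chosen by function with earlier results of these data known. Their called shares are thus descriptions, and no difference from all genes was tested. Of 55 effector and 36 coreceptor-list symbols, 1 and 5 were not analysed here. Both lists held more abundant genes, with a median level of 859 and 863, against 293 over all genes tested. All genes tested were called in 16.1% of cases at mean values from 100 to 1000, and in 18.8% from 1000 upward. Of 54 cytoplasmic effectors tested, 8 rose and 5 fell, a share of 24.1% against 14.2% of all genes tested, with a median log2 fold change of 0.0079. RHOA, the GTPase of growth cone collapse, had 14564 and 13117 in MEK5DD, against 7652 and 7773 in WT. It rose 1.79-fold (log2 0.84, SE 0.06, adjusted p = 4.53e-06), with 214 exon bases shared with TCTA. CRMP1, a mediator of SEMA3A signalling, rose by 0.44 on the log2 scale, with 159 exon bases shared with EVC. Of the related genes in the list, DPYSL3 fell, with 14528 and 14737 in MEK5DD and 19273 and 18702 in WT (log2 -0.38, SE 0.06, adjusted p = 0.000889). DPYSL2, DPYSL4 and DPYSL5 did not pass. RND3, a GTPase that opposes RHOA, fell by 0.60 on the log2 scale (SE 0.07), with 1526 and 1654 in MEK5DD and 2371 and 2453 in WT. The actin-binding gene ABLIM1 fell by 0.46, the plexin B effector gene ARHGEF11 by 0.42 and the kinase gene PAK3 by 0.66. PAK3 lost its call without WT replicate 1 (adjusted p = 0.147), and DESeq2 did not call it either (adjusted p = 0.0557).

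Of 31 coreceptors, cofactors and proteases tested, 8 rose and 3 fell, a share of 35.5% against 14.2% of all genes tested. The median log2 fold change of this list was 0.03. L1CAM, an adhesion molecule that forms part of SEMA3A receptors, had 910 and 835 in MEK5DD, against 295 and 320 in WT. It rose 2.83-fold (SE 0.09 on the log2 scale, adjusted p = 8.23e-07), and the groups were far apart. FLRT2, an adhesion protein that binds UNC5 receptors, had 67.2 and 67.8 in MEK5DD and 27.3 and 33.3 in WT, a 2.20-fold rise. GPC3, a cell surface proteoglycan, fell by 0.91, the GDNF receptor gene GFRA1 by 0.80 and the protease gene MMP2 by 0.46 on the log2 scale. GFRA1 missed the threshold in DESeq2 (adjusted p = 0.0568). BMPR2, a BMP receptor gene, rose by 0.37, with an adjusted p of 0.0553 when WT replicate 1 was left out and 0.0853 when WT replicate 2 was. DESeq2 called 7 effectors higher and 4 lower, and 6 genes of the coreceptor list higher and 2 lower. The calls of both lists moved with the library left out: the effectors gave 3 to 12 rises and 4 to 14 falls, and the coreceptor list 2 to 11 rises and 3 to 5 falls.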

How the data were processed

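RNA-seq of 4 libraries, 2 MEK5DD and 2 WT by their labels, was used from the deposited table of normalised counts per gene. The unit is signal, gene counts normalised by the authors. Per the submitters' processing notes, which give no role or order, the tools were DESeq2 1.26.0, featureCounts 1.5.3, STAR and Trimmomatic 0.36 and the build hg38. The sources used here do not give the annotation or whether counting used strand; therefore reads of overlapping genes cannot be told apart. Every value was a whole multiple of its library's smallest value, within 0.001 for 100% of genes, and dividing by it recovered reads. Each listed gene has at least 1 read in each library.

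The main test was limma 3.58.1 (R 4.3.3) with a mean-variance trend on log2(value + 1), over the 15721 genes that reached a value of 10 in 2 or more libraries. Two-sided p-values were adjusted over these genes (Benjamini-Hochberg), and calls are at an adjusted p under 0.05. Folds are on that scale, which understates changes of low genes. Alternatives were another pseudocount, other filters and scalings, no trend, a replicate term, each library left out, and, on recovered reads, DESeq2 1.42.0 and the quasi-likelihood test of edgeR 4.0.16. The edgeR test called 2306 genes. The procedure was tested on simulated data.

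Exon lengths, coordinates and overlaps came from GENCODE v29 (GRCh38), where all 69 members matched. Members, partner lists and markers were chosen with earlier results of these data known. Named were called members, the most abundant member and the largest uncalled change of each family, and up to 6 called partners per list. DPYSL2, DPYSL3, DPYSL4 and DPYSL5 were added beside CRMP1 after their values were seen. SEMA7A, SEMA6C, UNC5D, UNC5B, NTN1, NTNG1, SLIT2, EPHA1, EPHA2, PLXNB1, PLXND1 and PLXNA1 were in part chosen after their values were seen.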

Additional observations from a re-analysis of the deposited data

How the results depend on the processing

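Of 16 called guidance genes, 0 were lost with pseudocount 5, TMM or upper-quartile factors or edgeR, 1 (UNC5A) with no filter, and DCC was not tested once a mean of 50 was required. With upper-quartile factors EPHB2 joined them (adjusted p = 0.0370). No named member reversed a called direction under any alternative run. Without the mean-variance trend 1 member was higher and 0 lower (1 in all), and 439 genes passed, 249 higher and 190 lower; the effector list then had 1 higher and 0 lower and the coreceptor list 2 higher and 1 lower. With DESeq2, 3 members were lower (EFNA5, EFNB1, UNC5A, SEMA3F and SEMA4B were lost), and 1358 genes passed, 769 higher and 589 lower. As each library was left out, 6 to 26 members passed, 3 to 12 higher and 2 to 14 lower, and 1160 to 4629 genes, 668 to 2383 higher and 482 to 2246 lower; effectors gave 3 to 12 higher and 4 to 14 lower, coreceptors 2 to 11 higher and 3 to 5 lower. With the replicate number as a block, 11 members were lower and 3349 genes passed, 1616 lower; the 16 calls all held and 7 members joined them. Libraries share only a number in the labels, and the deviations of same-numbered libraries from their group means had a correlation of 0.09 over 12219 genes, from 1 independent pair. Removing a library leaves 1 group with a lone library, assumed to vary like the other group. A gene's own spread in such a fit came only from the group that kept both libraries. Passes and losses there thus follow that group's spread as well as the size of the change. The cause of these moves was not tested. EPHA3, EPHA6 and EPHA10, with 1 to 10 reads in each library, were too low to test, and DCC rests on 8 to 43 reads.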
